A study of Mus musculus with 18 samples.

Results

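The 38 genes described here serve the unfolded protein response and protein folding in the endoplasmic reticulum (ER), and they were chosen by gene symbol from lists of ER chaperones, disulfide isomerases, stress sensors and quality-control factors. The choice used no threshold on measured values, but it was made with earlier results of these data known. All 38 were found among the 24059 gene symbols of the count tables. Gene expression was measured by RNA-seq of 18 libraries of bone marrow-derived macrophages, primary cells that were grown from the marrow of C57BL/6J mice for 7 days in medium conditioned by L929 cells. The first count table holds cells stimulated with lipopolysaccharide (LPS), the bacterial cell wall component that activates macrophages, and untreated cells. The second holds cells loaded with cholesterol and then given reconstituted high-density lipoprotein (rHDL), cells loaded with cholesterol, cells given rHDL without loading, and cells with neither, and all 4 of these groups were then stimulated with LPS. The rHDL was CSL111, a particle of APOA1 and soybean phosphatidylcholine at 1 to 150, given on day 8 for 20 h and washed off before LPS, and loading used liposomes of phosphatidylcholine (POPC) and cholesterol before the rHDL step. No group received rHDL or cholesterol without LPS, so every comparison on them is one within LPS-stimulated cells. The labels state neither the dose of LPS nor how long it was given. Each of the 6 groups has 3 libraries. The labels do not say whether these came from separate cultures or animals, so the p-values measure the spread between these samples, which may be technical. In bulk RNA, fewer cells of a type and less RNA per cell cannot be told apart.

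The ER folds secreted and membrane proteins with Hsp70 and Hsp90 chaperones, lectin chaperones that read N-glycans, and enzymes that form disulfide bonds, and it sends proteins that fail to fold to the proteasome. When unfolded proteins build up, the sensors IRE1 (Ern1), PERK (Eif2ak3) and ATF6 (Atf6) leave the chaperone BiP (Hspa5) and signal: IRE1 splices the mRNA of the transcription factor Xbp1, PERK slows translation, and ATF6 is cut in the Golgi to release a transcription factor. The resulting factors raise the chaperone and degradation genes through short promoter elements, and macrophages use this response while they secrete cytokines and when free cholesterol enters the ER membrane.

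Those promoter elements are shown because many of the members carry them. A RefSeq promoter (build GRCm38.p6, from 250 bases before to 50 bases after the gene start) was matched for 32 of the 38 members. It was missing for Hspa13, Hyou1, Manf, Atf6, Derl1 and Sec61a1. The ER stress response element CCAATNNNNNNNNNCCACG is a joint site for NF-Y and for ATF6 or XBP1. It was found on either strand in a promoter of 10 of the 32 members (31.2%). Of all 27025 genes with a promoter, 37 held it (0.137%), these 10 included. The members were chosen as genes of this response, so the higher share is not a separate result. These 10 are Hspa5, Hsp90b1 with 2 elements, Calr, Canx, Pdia6, Ero1lb, Dnajc3, Creld2, Syvn1 and Derl3. The second form of the element, ATTGGNCCACG, was found in Dnajb11 and Herpud1 (6.2% of the members, 0.0444% of all genes). The core TGACGTGG was found in Txndc5, Txndc11 and Sec24d (9.4% of the members, 0.714% of all genes). No matches of different motifs overlapped, since each of these promoters held only 1 kind. The windows below hold the element in capitals with bases around it, 5′ to 3′ on the gene's strand. They lie at chr2:34772010-34772058 (Hspa5, + strand), chr10:86705518-86705671 (Hsp90b1, - strand), chr8:84847060-84847108 (Calr, - strand), chr12:17266476-17266524 (Pdia6, + strand), chr13:12565667-12565715 (Ero1lb, + strand), chr14:118937812-118937860 (Dnajc3, + strand), chr15:88819505-88819553 (Creld2, + strand) and chr8:94386362-94386402 (Herpud1, + strand). In Calr, Ero1lb, Creld2 and the second element of Hsp90b1 the match is on the other strand, so its capitals read as the reverse complement of the motif.
Hspa5: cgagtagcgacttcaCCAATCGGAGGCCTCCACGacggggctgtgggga
Hsp90b1: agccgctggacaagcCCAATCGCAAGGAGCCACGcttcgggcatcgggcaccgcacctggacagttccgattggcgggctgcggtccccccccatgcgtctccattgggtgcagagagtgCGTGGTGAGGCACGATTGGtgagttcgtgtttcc
Calr: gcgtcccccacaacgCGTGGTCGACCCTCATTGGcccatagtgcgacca
Pdia6: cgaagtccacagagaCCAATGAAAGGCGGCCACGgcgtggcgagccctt
Ero1lb: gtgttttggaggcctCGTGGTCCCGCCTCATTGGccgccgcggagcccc
Dnajc3: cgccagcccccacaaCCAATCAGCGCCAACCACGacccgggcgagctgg
Creld2: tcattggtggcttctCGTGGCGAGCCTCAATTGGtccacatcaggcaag
Herpud1: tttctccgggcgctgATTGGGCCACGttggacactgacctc
A match is a description of these letters and not a measured binding site, and a promoter without one lacks only these letters in this window.

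**Figure D1:**
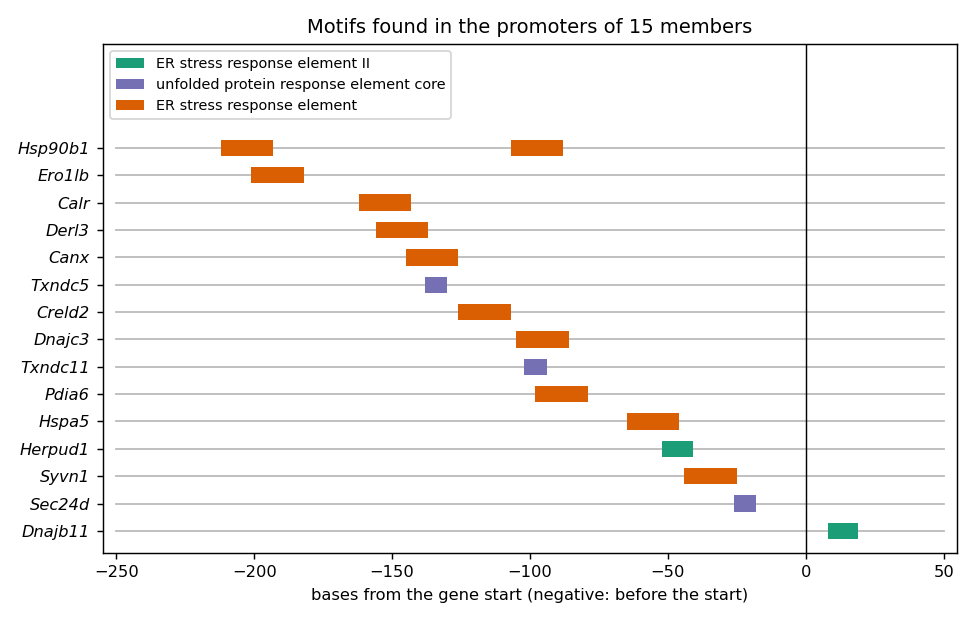
Position of each motif match (coloured bar) in the promoters of the 15 members that hold at least 1 of the 3 motifs, in bases from the RefSeq gene start (grey line: window searched). All matches but that of Dnajb11 lie before the start, and Hsp90b1 holds 2 ER stress response elements.

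How much of each member could be measured depends on the counting. All 6696 rows of the tables with no exon base of their own held 0 counts in all libraries, so reads that overlap more than 1 annotated row were left out, and a gene with overlapping transcripts is counted only over the bases it shares with no other row. Of the 38 members, 24 had all their exon bases free and 26 had at least 80% free. Hspa5, the gene of BiP, had 82 free bases (3.1%) and Canx, the membrane lectin chaperone calnexin, had none. Xbp1 had 26 free bases (1.2%). Canx and Xbp1 stood at 0 counts in every library, and with so few free bases nothing can be said of the level or splicing of Xbp1 here. Hspa13, Sel1l, Os9, Derl2 and Sec23b had under 20% free as well. After the filter on low counts, 32 members were tested for LPS against untreated cells and 31 in the comparisons of the second table. Canx, Xbp1, Hspa13, Derl2, Derl3 and Sec23b were tested in neither table, and Hspa5 only in the first. Derl3 had all its exon bases free and still averaged at most 0.305 CPM (read counts put to a common library size by TMM scaling) in any group.

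Libraries of LPS-stimulated and untreated cells in the first table held 11450243 to 16835472 counts, and the 12 libraries of the second table held between 9464916 and 15607889. No replicates agreed within sampling noise, so none was merged. TMM scaling was done within a table, values after ± are SDs for CPM and standard errors for log2 fold changes, n is 3 libraries per group throughout, and a gene was called where edgeR's quasi-likelihood test gave a Benjamini-Hochberg adjusted p under 0.05 over all genes tested. Per kilobase of free exon, among members with at least 80% of their bases free, Calr was the most abundant in the LPS-only cells of the second table at 271 CPM per kilobase, followed by Hsp90b1 at 160, Pdia3 at 112 and P4hb at 99.6. Eif2ak3 stood at 2.01, Pdia5 at 0.411 and Derl3 at 0.104 CPM per kilobase, with 270 counts for Eif2ak3, 22 for Pdia5 and 4 for Derl3 in those 3 libraries.

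In the second table more members were higher than lower with rHDL alone and with cholesterol loading alone, and more were lower than higher when rHDL followed loading. With rHDL before LPS, against LPS alone, 17 of 31 members were higher and 0 lower, in a comparison that called 18.1% of all 8965 genes higher and 18.4% lower. The median log2 change was 0.31 over the members and 0.03 over all genes. After loading, rHDL did the opposite: 0 members were higher and 11 lower against loaded cells without rHDL, where 0.424% of all genes were higher and 0.591% lower. The members are 0.346% of the genes tested, and they made up 20.8% of the 53 genes called lower. This share depends on how many genes are called: it was 12.8% of 86 genes with no low-count filter, 39.1% of 23 in a fit of only the groups compared, and 16.4% to 36.4% with each library left out, at most without loaded replicate 3. It was 7.66% of 209 genes in a fit with a term for replicate number, though the labels do not pair libraries by number. Their median there was -0.35, against 0.00 over all genes. For the difference between the rHDL effects after and without loading, 20 members were called negative and 0 positive, against 14.2% and 16.0% of all genes, with a median of -0.65 over the members and -0.03 over all genes. These 2 rHDL effects share no library. Scaled by library totals in place of TMM, rHDL alone called 2507 genes higher and 1273 lower, rHDL after loading 25 and 67, the difference 1016 and 2124, and loading 626 and 254, while the members were called in the same single direction in each of these. At an unadjusted p under 0.05 edgeR gave 0 members lower with rHDL alone, 0 higher with rHDL after loading and 0 with a positive difference, and DESeq2 also called 0 in each of these directions. Of the 8965 genes, 1982, 508 and 1794 had an unadjusted p under 0.05 in these directions in edgeR.

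Cholesterol loading without rHDL raised 15 of 31 members against LPS alone and lowered 0, where 3.99% of all genes were higher and 4.57% lower. The median change was 0.37 over the members and 0.01 over all genes. At an unadjusted p under 0.05 it was 20 higher and 0 lower, against 1077 and 1051 of the 8965 genes. In rHDL-treated cells loading had the opposite sign, with 1 member higher and 17 lower, against 18.5% and 17.1% of all genes, and a median of -0.31 against -0.01 over all genes. Loading is compared with the same LPS-only libraries as rHDL is, so their values are given side by side below without a measure of likeness. The comparisons of loading and of rHDL after loading also share the loaded libraries, with opposite signs. Those of rHDL alone and of loading in rHDL-treated cells share the rHDL libraries in the same way. Opposite calls in such a pair are therefore not independent results, and this holds for the joint patterns that follow. Over all 3 comparisons, 9 members (29.0%) were higher with rHDL, lower with rHDL after loading and higher with loading, a pattern of 16 of the 8965 genes (0.178%). Another 4 (12.9%) were higher with rHDL and with loading only, against 1.65% of all genes, and 2 (6.45%) were lower with rHDL after loading and higher with loading only, against 0.123%. The 4 that were higher with rHDL only (12.9%) compare with 15.4% of all genes, and the 12 that passed in none of the 3 (38.7%) with 60.6%.

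Between cells given both treatments and cells given neither, edgeR called 0 of 31 members in either direction, while 1.42% of all genes were higher and 1.91% lower. At an unadjusted p under 0.05, 3 members were higher and 3 lower, against 710 and 753 of the 8965 genes. DESeq2 called 1 member higher, Herpud1, at a log2 fold change of 0.43. Without the low-count filter edgeR also called 1 higher. The median change was 0.03 over the members and 0.01 over all genes. The 2 groups of libraries overlapped for 25 of the 31 members, and the 95% interval of the change lay within 1.5-fold for 25. Neither count was taken over all genes, so they are not a result particular to the members. This comparison was added after the data were seen. Its smallest adjusted p was 0.0624, for Ero1lb. Leaving out LPS-only replicate 1 gave 1 member lower, and leaving out LPS-only replicate 2 or loaded rHDL replicate 3 gave 1 higher.

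**Figure D2:**
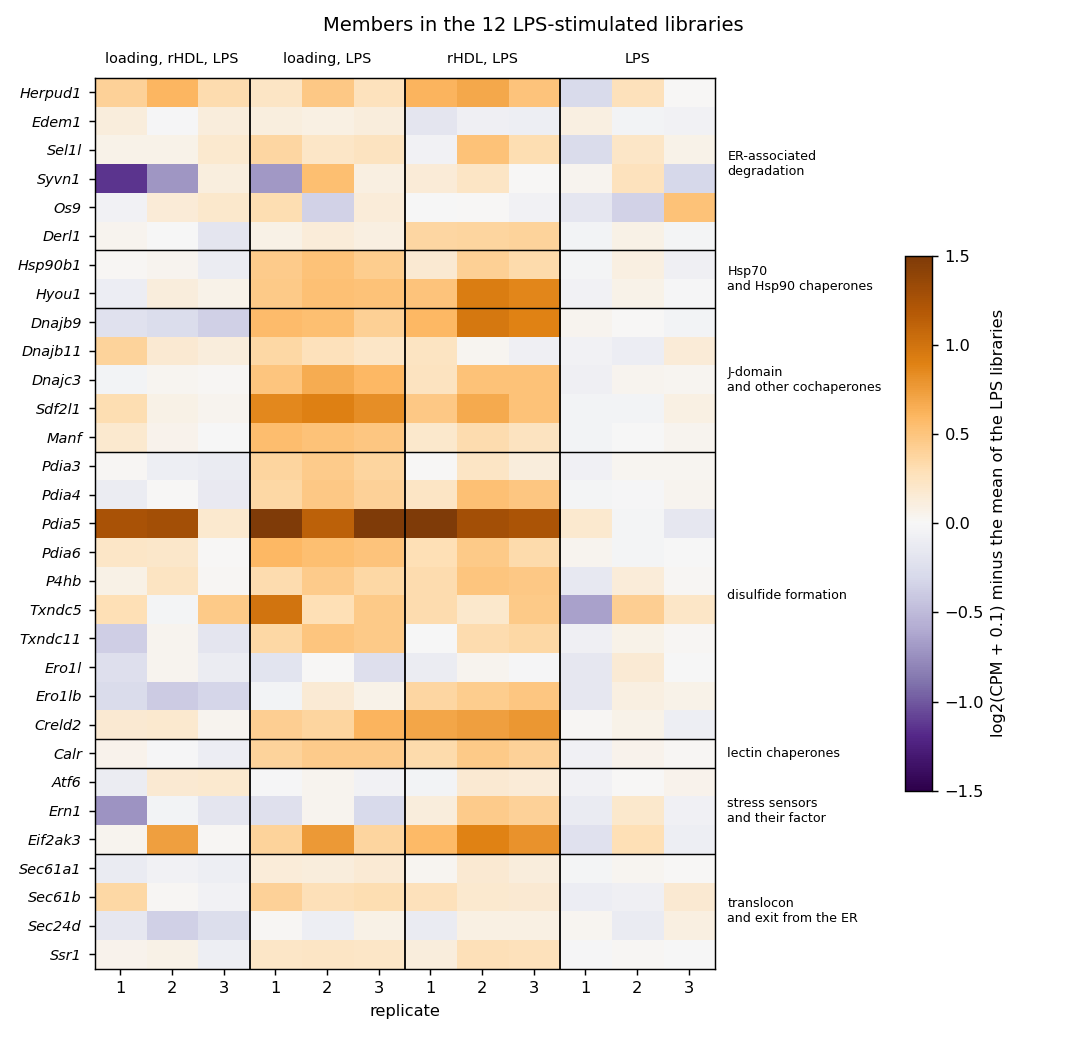
Log2(CPM + 0.1) of the 31 tested members in the 12 LPS-stimulated libraries of the second table, minus the gene's mean in the LPS-only libraries (colour, capped at 1.5 either way; rows by role, columns by group and replicate). Most rows of chaperones, cochaperones and disulfide enzymes are above the LPS-only level in the loaded and in the rHDL columns and near it in the columns of cells given both.

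Among the Hsp70 and Hsp90 chaperones, both tested members followed this pattern. Hyou1, an Hsp70 relative that exchanges the nucleotide of BiP (mm10 chromosome 9, 44379490 to 44392369), had 96.4, 112 and 107 CPM in loaded rHDL cells, 142, 149 and 147 CPM in loaded cells, 147, 197 and 189 CPM in rHDL cells, and 99.0, 108 and 102 CPM in LPS-only cells. Every library with a single treatment lay above every library with both or neither. Its log2 change was 0.78 ± 0.10 with rHDL alone (adjusted p = 2.37e-05) and -0.47 ± 0.10 with rHDL after loading (adjusted p = 0.0344), a difference of -1.25 ± 0.14 (adjusted p = 1.79e-05). Hsp90b1, the Hsp90 of the ER known as GRP94, averaged 437 ± 23.6 CPM in loaded rHDL cells, 613 ± 19.5 CPM in loaded cells, 547 ± 45.3 CPM in rHDL cells and 442 ± 28.1 CPM in LPS-only cells. It changed by 0.31 ± 0.07 with rHDL alone and by -0.49 ± 0.07 after loading. Hspa5 had 0.290 to 0.510 CPM in the 4 groups over its 82 free bases, too few counts to be tested.

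Calr, the soluble lectin chaperone calreticulin (mm10 chromosome 8, 84842088 to 84846931), had 547, 520 and 491 CPM in loaded rHDL cells, 690.5, 720.1 and 719 CPM in loaded cells, 662, 723 and 694 CPM in rHDL cells, and 504, 544 and 531 CPM in LPS-only cells. The loaded and the rHDL libraries overlapped each other and stood apart from those with both or neither, which also overlapped each other. The change was 0.40 ± 0.06 with rHDL alone (adjusted p = 0.000205) and -0.45 ± 0.06 after loading (adjusted p = 0.00285), with a difference of -0.85 ± 0.09 (adjusted p = 1.3e-05).

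Of the 5 cochaperones, 4 were higher with rHDL alone, 4 lower with rHDL after loading and 4 higher with loading. Of all genes, 18.1%, 0.591% and 3.99% were called in these directions. Dnajb9, the J-domain protein ERdj4 that brings BiP to misfolded proteins and to IRE1 (mm10 chromosome 12, 44205897 to 44210068), had 18.7, 17.99 and 16.95 CPM in loaded rHDL cells, 32.2, 31.7 and 28.9 CPM in loaded cells, 32.7, 42.6 and 40.4 CPM in rHDL cells, and 22.4, 21.7 and 21.0 CPM in LPS-only cells. The rHDL libraries were the highest, the loaded ones next, and the libraries with both treatments lay below all others. The change was 0.83 ± 0.10 with rHDL alone (adjusted p = 1.74e-05) and -0.79 ± 0.10 after loading (adjusted p = 0.00167). The difference of -1.62 ± 0.14 (adjusted p = 2.9e-06) had the smallest p among the members, at rank 55 of the 8965 genes.

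Sdf2l1, which works with the J-domain protein Dnajb11 on clients of BiP (mm10 chromosome 16, 17130138 to 17132383), had 28, 23.8 and 23.2 CPM in loaded rHDL cells, 41.0, 42.3 and 40.2 CPM in loaded cells, 31.3, 35.9 and 32.5 CPM in rHDL cells, and 21.8, 21.9 and 24.0 CPM in LPS-only cells. Here loading gave the highest libraries, and no rHDL library overlapped with the LPS-only or the loaded ones. It rose by 0.87 ± 0.09 with loading (adjusted p = 3.23e-05) and by 0.56 ± 0.09 with rHDL alone (adjusted p = 0.000207), and fell by 0.72 ± 0.09 with rHDL after loading (adjusted p = 0.00116). Dnajc3, the J-domain protein p58IPK that binds unfolded clients for BiP (mm10 chromosome 14, 118937932 to 118981702), had 77.5, 81.2 and 81.1 CPM in loaded rHDL cells, 113, 126 and 121 CPM in loaded cells, 94.95, 114 and 114 CPM in rHDL cells, and 75.6, 82.5 and 81.7 CPM in LPS-only cells. Its libraries with both treatments fell inside the range of the LPS-only libraries, and the change between these groups was 0.00 ± 0.08. Dnajc3 changed by 0.43 ± 0.08 with rHDL alone and by -0.59 ± 0.08 after loading.

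Manf, a secreted ER protein that binds BiP, had 67.2, 61.0 and 58.8 CPM in loaded rHDL cells, 86.9, 85.0 and 82.6 CPM in loaded cells, 67.3, 74.1 and 70.2 CPM in rHDL cells, and 57.3, 58.9 and 60.8 CPM in LPS-only cells. All loaded libraries were above all others, with the rHDL libraries in between. Manf rose by 0.52 ± 0.07 with loading (adjusted p = 0.000297) and by 0.26 ± 0.07 with rHDL alone (adjusted p = 0.00847). Dnajb11, the J-domain protein ERdj3, passed no test in the second table and averaged 26.7, 27.6, 23.9 and 22.8 CPM in loaded rHDL, loaded, rHDL and LPS-only cells, over 49.7% of its exon bases.

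**Figure D3:**
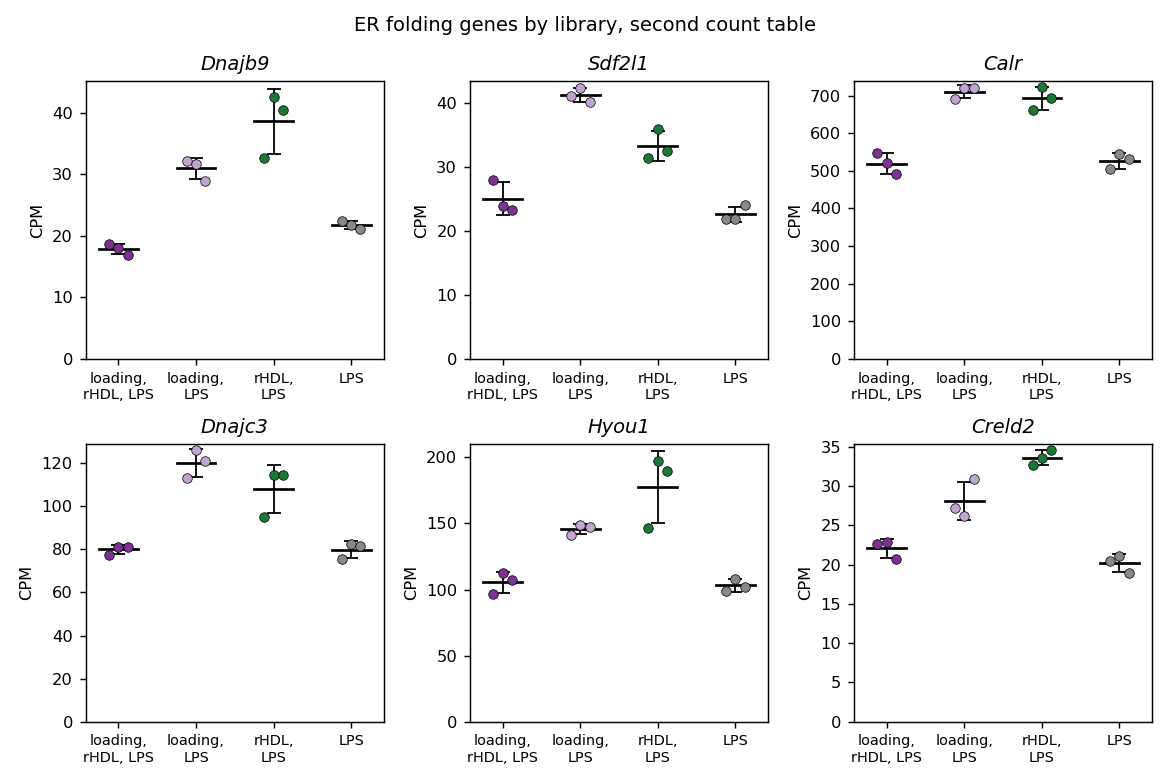
CPM of Dnajb9, Sdf2l1, Calr, Dnajc3, Hyou1 and Creld2, the 6 members whose rHDL effects differed at the smallest p, per library (points), with the group mean (line) and SD (bar), in loaded rHDL, loaded, rHDL and LPS-only cells, all stimulated with LPS. In each of the 6 genes both middle groups stand above the outer groups, and for Dnajb9 the libraries with both treatments lie below those with neither.

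Of the 10 members of disulfide formation, 6 were higher with rHDL alone, 4 lower with rHDL after loading, 8 lower for the difference and 7 higher with loading. The shares of all genes called in these directions were 18.1%, 0.591%, 14.2% and 3.99%. Creld2, a disulfide isomerase-like protein known as an ER stress target (mm10 chromosome 15, 88819646 to 88826681), had 22.6, 22.9 and 20.7 CPM in loaded rHDL cells, 27.2, 26.2 and 30.9 CPM in loaded cells, 32.7, 33.6 and 34.6 CPM in rHDL cells, and 20.4, 21.2 and 19.0 CPM in LPS-only cells. Its rHDL libraries were all above its loaded ones. Creld2 rose by 0.73 ± 0.09 with rHDL alone (adjusted p = 1.36e-05, the smallest among the members), while its change of -0.35 ± 0.09 after loading did not pass (adjusted p = 0.0803), and the difference was -1.08 ± 0.12 (adjusted p = 2.17e-05).

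Pdia6, the disulfide isomerase P5, had 136, 134 and 117 CPM in loaded rHDL cells, 176, 170.1 and 166 CPM in loaded cells, 144, 161 and 147 CPM in rHDL cells, and 120, 114 and 116 CPM in LPS-only cells. Its loaded libraries were the highest, and those with both treatments reached down into the LPS-only range. It rose by 0.55 ± 0.07 with loading (adjusted p = 0.000285) and by 0.37 ± 0.07 with rHDL alone (adjusted p = 0.00094). Ero1lb, an oxidase that recharges the isomerases, had 21.3, 19.6 and 20.6 CPM in loaded rHDL cells, 25.05, 28.8 and 26.9 CPM in loaded cells, 33.3, 34.9 and 36.2 CPM in rHDL cells, and 23.1, 27.5 and 26.9 CPM in LPS-only cells. In contrast to Pdia6 it was high only in the rHDL libraries, and its loaded libraries overlapped with the LPS-only ones. Ero1lb changed by 0.43 ± 0.09 with rHDL alone (adjusted p = 0.00134), by 0.05 ± 0.09 with loading (adjusted p = 0.772) and by -0.76 ± 0.09 with loading in rHDL-treated cells (adjusted p = 1.01e-05).

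The other enzymes of disulfide formation varied in size. Pdia5, a disulfide isomerase, had the largest fold changes of the 31 members with rHDL alone and with loading, on few counts (22 in the 3 LPS-only libraries), with 1.57 ± 0.619 CPM in loaded rHDL cells, 2.24 ± 0.454 CPM in loaded cells, 2.12 ± 0.356 CPM in rHDL cells and 0.744 ± 0.0999 CPM in LPS-only cells. Its log2 change was 1.51 ± 0.34 with rHDL alone (adjusted p = 0.00274), 1.58 ± 0.34 with loading (adjusted p = 0.0119) and -0.53 ± 0.29 with rHDL after loading (adjusted p = 0.513). Pdia4 (ERp72) and P4hb, the classical protein disulfide isomerase, rose by 0.42 ± 0.08 and 0.43 ± 0.08 with rHDL alone and by 0.41 ± 0.09 and 0.37 ± 0.08 with loading. With rHDL after loading Pdia4 fell by 0.49 ± 0.09, whereas P4hb changed by -0.26 ± 0.08 without passing. Pdia3 (ERp57), the isomerase that works with the lectin chaperones, rose with loading by 0.40 ± 0.07 and fell by 0.47 ± 0.07 with rHDL after loading, and its change of 0.12 ± 0.07 with rHDL alone did not pass. Txndc11, a thioredoxin-domain protein with 59.0% of its bases free, changed in the same directions as Pdia3. Ero1l, the second oxidase, and Txndc5 passed none of these tests. Txndc5 was counted over 25.6% of its exon bases, with 44 counts in the 3 LPS-only libraries. It averaged 1.68, 2.18, 1.78 and 1.46 CPM in loaded rHDL, loaded, rHDL and LPS-only cells, so its result is limited by low counts.

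Of the 3 tested sensors, 1 was higher with rHDL alone, Eif2ak3, where 18.1% of all genes were higher. This gene of PERK (mm10 chromosome 6, 70844527 to 70905240) had 9.16, 14.9 and 9.03 CPM in loaded rHDL cells, 11.8, 15.2 and 11.7 CPM in loaded cells, 13.3, 16.7 and 15.6 CPM in rHDL cells, and 7.66, 10.99 and 8.39 CPM in LPS-only cells. The rHDL libraries were above the LPS-only ones, while replicate 2 was the highest of every group and brought the libraries with both treatments into the range of the others. Eif2ak3 rose by 0.74 ± 0.19 with rHDL alone (adjusted p = 0.00763), changed by -0.23 ± 0.19 after loading (adjusted p = 0.711), and differed by -0.97 ± 0.28 between them (adjusted p = 0.0156). Ern1, the gene of IRE1 (mm10 chromosome 11, 106397620 to 106487796), had 23.6, 37.9 and 34.4 CPM in loaded rHDL cells, 33.2, 40.1 and 31.8 CPM in loaded cells, 42.5, 53.3 and 51.5 CPM in rHDL cells, and 35.8, 44.6 and 37.2 CPM in LPS-only cells. The rHDL libraries overlapped with the LPS-only ones and stood above those with both treatments. Its change with rHDL alone was 0.32 ± 0.15 (adjusted p = 0.112), and in rHDL-treated cells it fell by 0.62 ± 0.15 with loading (adjusted p = 0.00515). Atf6 (mm10 chromosome 1, 170704457 to 170867771) had 121, 147 and 148 CPM in loaded rHDL cells, 130, 135 and 127 CPM in loaded cells, 128, 147 and 145 CPM in rHDL cells, and 126, 132 and 136 CPM in LPS-only cells. All 4 groups overlapped, no test passed, and the difference between the rHDL effects was -0.01 ± 0.12 (adjusted p = 0.974).

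Of the 6 tested members of ER-associated degradation, 2 were higher with rHDL alone (18.1% of all genes), and edgeR called 0 for rHDL after loading and 0 for loading. At an unadjusted p under 0.05 these were 1 lower and 1 higher, against 536 and 1077 of the 8965 genes. DESeq2 called 0 in both comparisons. Few of all genes were called there, 0.591% lower with rHDL after loading and 3.99% higher with loading. Derl1, a channel-like protein of the degradation complex, averaged 110 ± 8.76 CPM in loaded rHDL cells, 123 ± 2.10 CPM in loaded cells, 148 ± 1.21 CPM in rHDL cells and 114 ± 5.27 CPM in LPS-only cells. It rose by 0.38 ± 0.07 with rHDL alone (adjusted p = 0.000455), and the difference between the rHDL effects was -0.53 ± 0.09 (adjusted p = 0.000813). Herpud1, a stress-induced membrane protein of the same complex, averaged 150 ± 14.7 CPM in loaded rHDL cells, 138 ± 12.8 CPM in loaded cells, 167 ± 10.1 CPM in rHDL cells and 111 ± 21.8 CPM in LPS-only cells. It rose by 0.59 ± 0.12 with rHDL alone (adjusted p = 0.00149), and its change of 0.12 ± 0.12 with rHDL after loading did not pass (adjusted p = 0.748). The difference of -0.46 ± 0.17 did not pass (adjusted p = 0.0527). Edem1, which directs misfolded glycoproteins to degradation, changed by -0.12 ± 0.07 with rHDL alone and was the member higher with loading in rHDL-treated cells, by 0.19 ± 0.07 (adjusted p = 0.0333). Sel1l, Os9 and Syvn1 passed no test here, with 2.4%, 4.1% and 20.2% of their bases free.

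Among the translocon and ER exit genes, Ssr1, a subunit of the translocon-associated complex, rose by 0.23 ± 0.06 with rHDL alone and by 0.22 ± 0.06 with loading. The difference between the rHDL effects was -0.44 ± 0.09 for Ssr1, and -0.33 ± 0.08 and -0.43 ± 0.15 for Sec61a1 and Sec61b, which belong to the protein-conducting channel. Sec24d, a cargo adaptor of COPII vesicles, changed by 0.02 ± 0.09 with rHDL alone and 0.00 ± 0.09 with loading, and fell by 0.27 ± 0.09 with loading in rHDL-treated cells (adjusted p = 0.023).

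**Figure D4:**
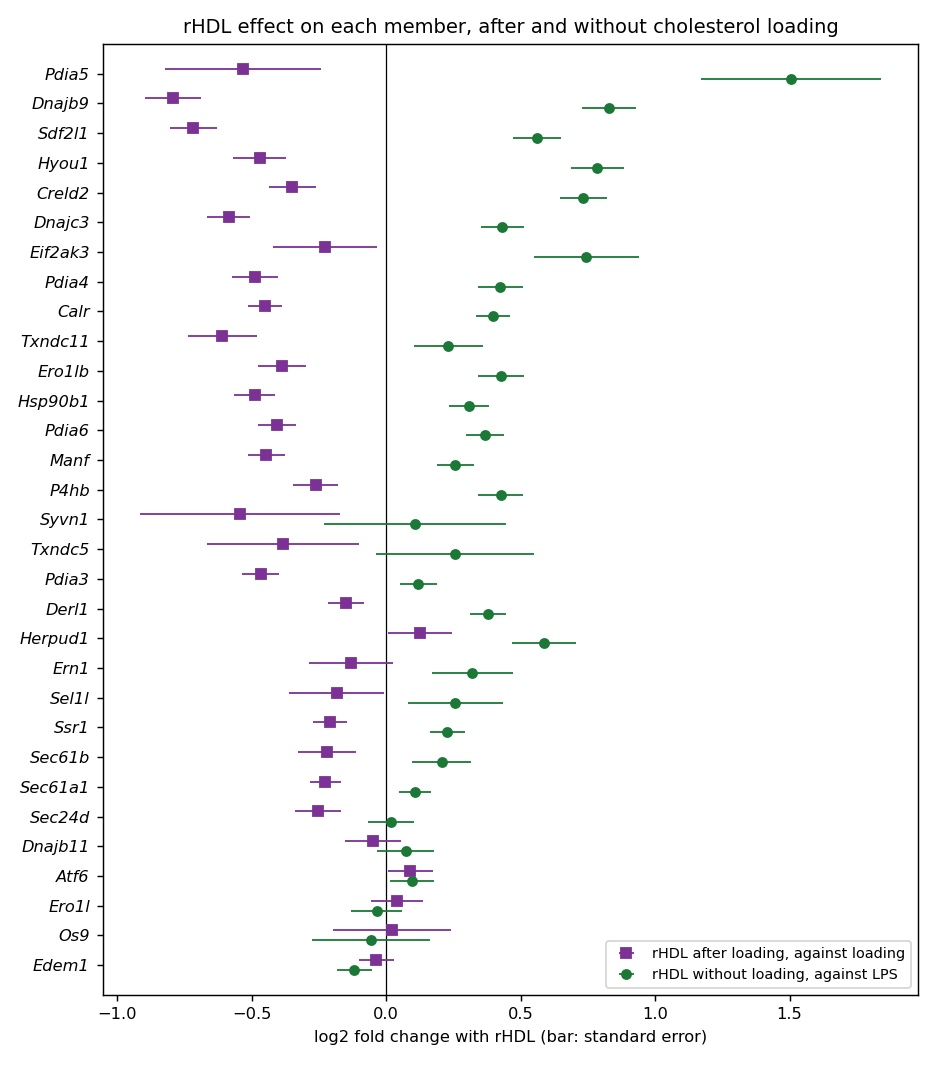
Log2 fold change with rHDL (points; bars: standard error) of the 31 tested members, after cholesterol loading (squares, against loaded cells) and without it (circles, against LPS-only cells), ordered by the difference. The changes without loading lie mostly right of 0 and those after loading mostly left of it, from Pdia5 with a difference of -2.04 to Edem1 with 0.08.

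Calls near the threshold were lost when 1 library was left out, with fold changes that moved little for some members and shrank for others. With each library left out in turn, the number of members lower with rHDL after loading was 7 to 11, and the 7 came without loaded replicate 2. There Hyou1, Pdia4, Pdia6 and Txndc11 did not pass, at adjusted p of 0.063 to 0.15. Over all such losses Hyou1 stayed at -0.49 to -0.41 (-0.47 with all libraries) and Txndc11 at -0.65 to -0.51 (-0.61). Without loaded replicate 1 or 3 or loaded rHDL replicate 1 or 3, Hyou1 and Txndc11 also lost their call, and Pdia4 or Pdia6 in some of these. Sec61b lost its call for the difference without any 1 of 10 of the 12 libraries, at adjusted p up to 0.131. Ssr1 and Txndc11 lost theirs for loading without any 1 of the 6 libraries compared, at 0.21 to 0.23 (0.22) and 0.40 to 0.48 (0.44), and Ssr1 for rHDL alone without rHDL replicate 2 or 3. P4hb lost its call for loading without LPS-only replicate 1 or 3 or loaded replicate 2 (adjusted p up to 0.078), and Pdia5 without LPS-only replicate 3 or loaded replicate 3 (adjusted p up to 0.0553). For loading in rHDL-treated cells, Edem1 lost its call without any 1 of 5 libraries, and only without loaded rHDL replicate 2 was it kept. Pdia6, Sec24d, Sec61a1, Ssr1 and Txndc11 lost theirs there without rHDL replicate 2, and some of them also without rHDL replicate 3 or a loaded rHDL replicate. Across these losses Pdia6 had -0.17 to -0.15 (-0.22 with all libraries), Ssr1 -0.19 to -0.16 (-0.21) and Txndc11 -0.38 to -0.30 (-0.40). Sec24d had -0.26 to -0.22 (-0.27) and Sec61a1 -0.19 to -0.16 (-0.19).

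Members with and without an ER stress response element were both part of the pattern. Of the 7 tested members whose promoter holds the element, 6 were higher with rHDL alone and 6 lower for the difference, with median log2 values of 0.40 and -0.81. Of the 24 without it, or without a promoter in the table, 11 were higher with rHDL alone and 14 lower for the difference, with medians of 0.26 and -0.50. Of all genes, 18.1% were higher with rHDL alone and 14.2% lower for the difference. The 24 include Hyou1, Manf, Atf6, Derl1 and Sec61a1, whose promoters could not be searched. All of these but Atf6 were called for the difference, so the 2 sets are not cleanly divided by the element. Dnajb9 and Sdf2l1, with the 2 smallest p-values for the difference, held none of the 3 motifs in their windows. Calr, Dnajc3 and Creld2, whose elements are printed above, were among the 6 members with the smallest p.

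In the first table LPS moved the members in both directions. Against untreated cells, 8 of 32 were higher and 9 lower, while 35.3% of all 9576 genes were higher and 37.6% lower, so the share called among the members was under that of all genes. The median log2 change was 0.00 over the members and -0.05 over all genes. This direction depends on the scaling: with libraries scaled by their totals alone, the median of all genes shifted to -0.77 and that of the members to -0.71, with 2 members higher and 26 lower. Changes below are relative to TMM, and those smaller than this shift hold only relative to the other genes.

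Herpud1 rose most, with 240.1, 246 and 251 CPM in LPS-stimulated cells and 75.0, 73.5 and 73.0 CPM in untreated cells. The groups were far apart, with a log2 fold change of 1.74 ± 0.07 (adjusted p = 2.14e-09). Ero1l had 204, 174 and 182 CPM in LPS-stimulated cells and 64.1, 68.4 and 64.3 CPM in untreated cells, a change of 1.51 ± 0.08 (adjusted p = 2.8e-08). Both were also positive with libraries scaled by totals. Hspa5 rose by 1.26 ± 0.31 (adjusted p = 0.00342) and Sel1l by 0.81 ± 0.20 (adjusted p = 0.00354), on few free bases, and neither passed under scaling by totals. Smaller rises were called for Manf, Dnajb11, Edem1 and Hsp90b1, from 0.24 to 0.45, and all 4 turned negative under that scaling.

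Eif2ak3 fell most, with 8.67, 9.53 and 8.06 CPM in LPS-stimulated cells and 35.2, 38.1 and 35.6 CPM in untreated cells. Every LPS library had less than every untreated one by a wide margin, a change of -2.05 ± 0.10 (adjusted p = 1.15e-08). Pdia4 had 50.3, 53.9 and 53.1 CPM in LPS-stimulated cells and 84.2, 82.6 and 81.9 CPM in untreated cells, a change of -0.66 ± 0.07 (adjusted p = 9.31e-06). The groups did not overlap for either gene. Of the other sensors, Atf6 had 142, 120 and 136 CPM in LPS-stimulated cells and 189, 204 and 172 CPM in untreated cells, and fell by 0.51 ± 0.09 (adjusted p = 0.000401). Ern1 had 82.6, 57.9 and 60.7 CPM in LPS-stimulated cells and 69.6, 74.3 and 67.0 CPM in untreated cells. These groups overlapped, and the change of -0.07 ± 0.12 did not pass (adjusted p = 0.631). Dnajb9 fell by 0.57 ± 0.09, Txndc5 by 0.91 ± 0.15, Txndc11 by 0.45 ± 0.12, Sdf2l1 by 0.36 ± 0.09, Dnajc3 by 0.27 ± 0.07 and Sec24d by 0.27 ± 0.10. Hyou1, Calr and Pdia3, which were called in the second table, changed by -0.02 ± 0.07, 0.02 ± 0.07 and -0.01 ± 0.09 here without passing. The members took 0.374% to 0.394% of all counts in LPS-stimulated cells and 0.577% to 0.589% in untreated cells. Hsp90b1 lost its call without untreated replicate 1 or 2 (adjusted p up to 0.0751). Sec24d lost its own without either of these or without LPS replicate 2 (adjusted p up to 0.124). Without LPS replicate 2 the Sec24d change was -0.15 (-0.27 with all libraries).

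**Figure D5:**
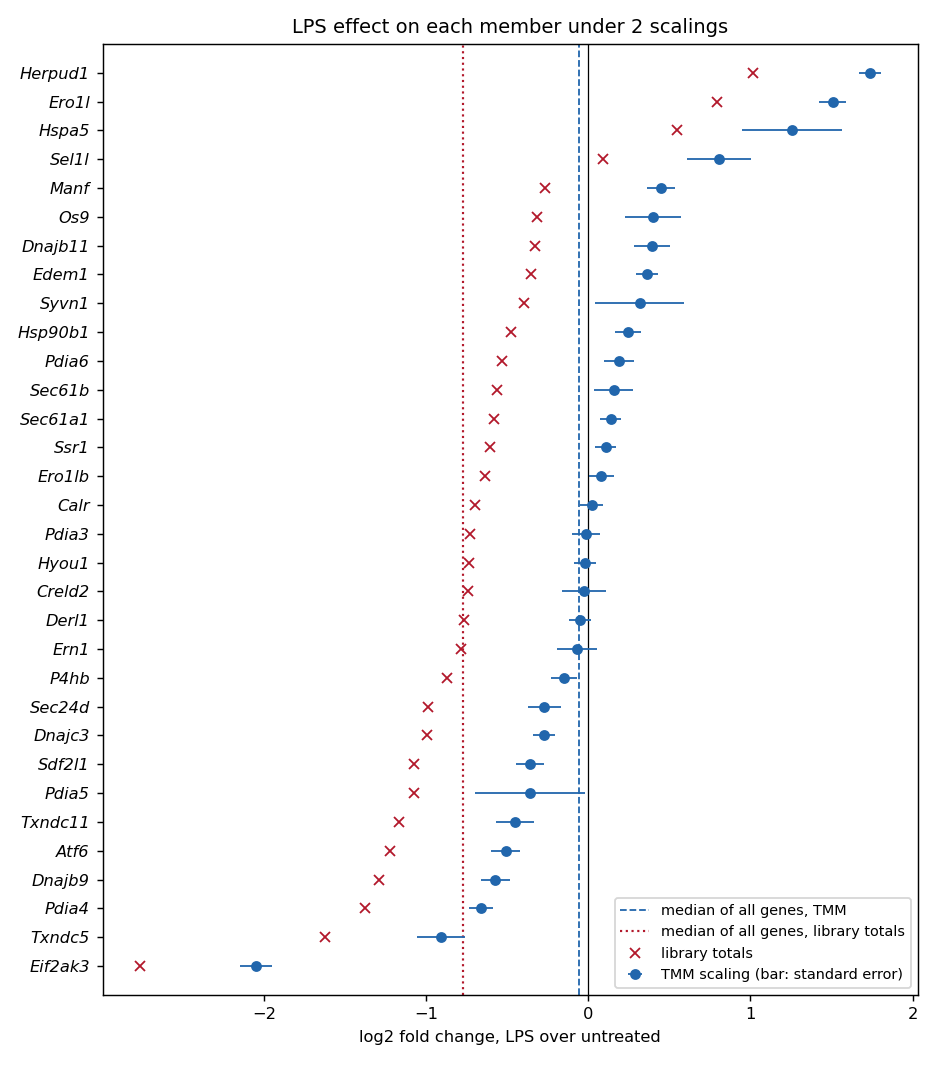
Log2 fold change of LPS over untreated cells for the 32 tested members with TMM scaling (circles; bars: standard error) and with scaling by library totals (crosses), with the median of all genes under each (vertical lines, -0.05 and -0.77). Herpud1 and Ero1l stand right of 0 and Eif2ak3 far left of it under both scalings.

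Other genes of the secretory pathway were read from lists chosen for their function, and their counts compare with the 18.1% of all genes called higher and 18.4% called lower with rHDL alone. At an unadjusted p under 0.05 edgeR gave 2064 of the 8965 genes higher and 1982 lower there. With rHDL alone, 6 of 20 genes of oligosaccharyltransferase and glycan trimming were higher and 0 lower (also 0 at an unadjusted p under 0.05 in edgeR and 0 in DESeq2), among them Ostc (0.43 ± 0.09), Dpagt1 (0.53 ± 0.11) and Rpn1 (0.33 ± 0.07), which attach or build N-glycans. Of 19 genes of the translocon, signal recognition and signal peptidase, 6 were higher and 1 lower, with Sec11c at 0.47 ± 0.10, Srprb at 0.34 ± 0.08 and Ssr3 at -0.31 ± 0.05. Of 22 further ER chaperones and isomerases, 4 were higher and 0 lower in edgeR (2 lower at an unadjusted p under 0.05 and 1 lower in DESeq2), with the thioredoxin-related Tmx4 at 0.69 ± 0.11 and Tmx1 at 0.40 ± 0.07. Another 4 of 19 further degradation genes were higher and 2 lower, with the ATPase Vcp at 0.50 ± 0.08. Of 23 genes of ER to Golgi transport, 3 were higher and 1 lower, with Preb at 0.47 ± 0.11. The median log2 change was 0.10 for the glycosylation list, 0.18 for the translocon list, 0.03 for the chaperones and isomerases, 0.04 for degradation and 0.13 for transport, against 0.03 over all genes. The share called higher was near or below that of all genes for the chaperones and isomerases, degradation and transport, so these counts show nothing particular to those lists.

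Of 17 partners of the sensors and genes of the PERK branch, 1 was higher and 6 lower with rHDL alone, with a median of -0.13. Among them were Ppp1r15a, a phosphatase subunit induced by that branch, at 0.65 ± 0.07, and Map3k5, a stress kinase downstream of IRE1, at -0.56 ± 0.07. With rHDL after loading edgeR called 3 of the 17 higher and 1 lower, against 0.424% and 0.591% of all genes. Among them were Map3k5 at 0.41 ± 0.07 and the PERK branch targets Trib3 at 0.54 ± 0.10 and Chac1 at 0.58 ± 0.11. DESeq2 called 3 higher and 3 lower. At an unadjusted p under 0.05 edgeR gave 6 of the 17 higher and 4 lower, against 508 and 536 of the 8965 genes. For the difference 7 of the 17 were called positive and 2 negative. For the same difference, where 14.2% of all genes were called negative and 16.0% positive, the calls were negative for 7 of 20 glycosylation genes (Rpn1 at -0.69 ± 0.10), 8 of 19 translocon genes (Tram1 at -0.52 ± 0.09) and 5 of 22 chaperones and isomerases (Tmx4 at -0.85 ± 0.15). They were negative for 5 and positive for 1 of 19 degradation genes (Vcp at -0.65 ± 0.11), and negative for 7 and positive for 2 of 23 genes of ER to Golgi transport (Preb at -0.71 ± 0.15). In these lists 4 genes fell with rHDL after loading, where 0.591% of all genes were lower, Rpn1 by 0.36 ± 0.07, Cnpy3 by 0.50 ± 0.07, Tram1 by 0.32 ± 0.06 and Spcs2 by 0.27 ± 0.06. With loading alone, which raised 3.99% and lowered 4.57% of all genes, 3 genes each of glycosylation, translocon, chaperones and transport were higher. Among them were Rpn1 at 0.36 ± 0.07 and Tram1 at 0.39 ± 0.06. Of the 17 genes of the PERK list, 3 were lower in edgeR, with Map3k5 at -0.74 ± 0.07, and 4 in DESeq2. At an unadjusted p under 0.05 edgeR gave 2 of the 17 higher and 5 lower, against 1077 and 1051 of the 8965 genes. LPS itself raised 12 of 18 genes of the PERK list and lowered 4, against 35.3% and 37.6% of all genes. Chac1 changed by 4.02 ± 0.10 and Ppp1r15a by 3.50 ± 0.11, with a list median of 1.09 against 0.00 over the members. This rise was not particular to the PERK list. LPS raised 12 and lowered 1 of 19 degradation genes, 14 and 4 of 24 transport genes, and 10 and 2 of 19 translocon genes. It raised 7 and lowered 6 of 22 chaperones and isomerases, and 4 and 5 of 21 glycosylation genes. All these counts are relative to TMM, and the direction of LPS changes depends on the scaling.

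Markers of the cells moved with rHDL as well. The summed level of the macrophage markers, of which 8 of 9 were found, was 18100 to 22100 CPM in loaded rHDL cells, 20600 to 22400 CPM in loaded cells, 11600 to 14100 CPM in rHDL cells and 21000 to 22900 CPM in LPS-only cells. Itgam stood at 0 counts with 0.06% of its exon bases free, so nothing can be said of its level. Lyz2 was the largest part of this sum, with means of 6450 CPM in rHDL cells and 13900 CPM in LPS-only cells. Of the 7 tested, 5 fell and 1 rose with rHDL alone, where 18.4% of all genes were lower and 18.1% higher. Csf1r changed by -0.84 ± 0.06 and Lyz2 by -1.11 ± 0.13. Cd68 and Cd14 did not fall, with means of 486 and 2010 CPM in rHDL cells and 340 and 1820 CPM in LPS-only cells. With rHDL after loading Csf1r changed by 0.04 ± 0.06 and Lyz2 by -0.17 ± 0.13 without passing. The stromal markers summed to 107 to 134 CPM in rHDL cells and 56.5 to 59.2 CPM in LPS-only cells, nearly all from Vwf. Neutrophil markers, 3 of 7 at 0 counts, summed to 3.09 to 5.08 CPM in rHDL cells and 12.8 to 16.0 CPM in LPS-only cells. S100a9, at 0 counts, had only 0.57% of its exon bases free. B and plasma cell markers, nearly all from Sdc1, summed to 120.0 to 123 CPM in rHDL cells and 145 to 160.0 CPM in LPS-only cells. T and NK cell markers summed to at most 4.47 CPM in any group of the second table. Markers of mast, erythroid and megakaryocyte cells, nearly all from Pf4, summed to 61.4 to 102 CPM in loaded rHDL cells, 65.2 to 75.2 CPM in loaded cells, 32.4 to 43.4 CPM in rHDL cells and 54.5 to 61.4 CPM in LPS-only cells. Of these, Pf4 and Ppbp fell with rHDL alone, with log2 changes of -0.59 ± 0.16 and -2.52 ± 0.42, and their differences between the rHDL effects were positive. Dendritic cell markers, nearly all from Itgax, summed to 74.0 to 89.2 CPM in loaded rHDL cells, 76.1 to 158 CPM in loaded cells, 102 to 117 CPM in rHDL cells and 69.8 to 94.4 CPM in LPS-only cells. With loading alone Csf1r fell by 0.24 ± 0.06, S100a8 by 0.92 ± 0.21 and Sdc1 by 0.35 ± 0.09, and 1 loaded library had 12.3 CPM of the stromal collagen gene Col3a1, which was at most 0.973 CPM in the other 3 groups. The part of these markers in the members' changes was not tested. The members took 0.313% to 0.351% of all counts in loaded rHDL cells, 0.409% to 0.441% in loaded cells, 0.383% to 0.454% in rHDL cells and 0.297% to 0.341% in LPS-only cells, so the groups with a single treatment lay above the others as shares of the raw counts.

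In the authors' deposited table of rHDL then LPS against LPS, 7 of the 38 members appear among 1609 listed genes: Pdia5, Dnajb9, Hyou1, Eif2ak3, Creld2, Herpud1 and Sdf2l1, with log2 fold changes of 0.55 to 1.51. In the authors' deposited table after loading, 3 appear among 47: Dnajc3 at -0.58, Sdf2l1 at -0.71 and Dnajb9 at -0.79. The listed members all have changes of about 0.55 or more in size. The calls above rest on adjusted p alone and include smaller changes, so their 17 and 11 members are not comparable with these 7 and 3.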

How the data were processed

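Per the submitters' processing notes, the authors used cutadapt, HISAT2, featureCounts of Subread and DESeq2 with the mm10 build, with no versions stated in the sources. The deposited tables hold raw read counts, 32850 rows for 24059 symbols. The deposited comparison lists of the authors give log2 fold changes with adjusted p-values. RNA was selected by poly-dT, per the labels' protocols.

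Rows were summed per symbol, scaled to CPM for display, and analysed in edgeR 4.0.16 (R 4.3.3): filterByExpr with a minimum count of 10, TMM, and quasi-likelihood F tests with Benjamini-Hochberg adjustment over all genes. The 2 tables were fitted apart, the 12 libraries of the second in 1 fit. Alternatives were DESeq2 1.42.0 and its size factors, library totals, 2 other filters, members with at least 20% free bases, fits of the groups compared, a replicate block and leaving out each library. The code was tested on simulated data.

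The members and gene lists were chosen with earlier results of these data known. Values of every library are given for up to 4 called members with the smallest p per comparison, 6 for the difference, and the sensors. Of other lists up to 3 called genes with the smallest p are named. The comparison of both treatments with neither was added after seeing the data.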

Additional observations from a re-analysis of the deposited data

Results flagged for a closer look

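For 20 of 31 members the effect of rHDL after cholesterol loading differed from its effect without loading, in edgeR's test of the difference itself (Benjamini-Hochberg adjusted p under 0.05 over all genes). All 20 differences are negative, which means that rHDL lowered the gene more, or raised it less, in loaded cells. On the log2 scale the cochaperones had -1.62 for Dnajb9, -1.28 for Sdf2l1, -1.02 for Dnajc3 and -0.70 for Manf. The chaperones had -1.25 for Hyou1, -0.80 for Hsp90b1 and -0.85 for Calr. Among the enzymes of disulfide formation the values were -2.04 for Pdia5, -1.08 for Creld2, -0.91 for Pdia4, -0.84 for Txndc11, -0.81 for Ero1lb, -0.77 for Pdia6, -0.69 for P4hb and -0.59 for Pdia3. The sensor gene Eif2ak3 had -0.97 and the degradation gene Derl1 -0.53. The translocon genes had -0.44 for Ssr1, -0.43 for Sec61b and -0.33 for Sec61a1.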

How the results depend on the processing

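Scaling by library totals moved the LPS comparison most, with 2 members higher (8 with TMM) and 26 lower (9), and turned Calr to -0.70, Dnajb11 -0.33, Edem1 -0.35, Ero1lb -0.64, Hsp90b1 -0.47, Manf -0.27, Pdia6 -0.53, Sec61a1 -0.58, Sec61b -0.56 and Ssr1 -0.61. No member reversed in the second table. With rHDL alone that scaling gave 20 members higher, for the difference 22 lower. The 1 member higher with loading in rHDL-treated cells became 0 under library totals, no low-count filter and fits of only the groups compared. Loading then rHDL against neither gave 1 higher under DESeq2, no low-count filter and the replicate block, and 1 lower under the replicate block. Leaving out 1 library gave 7 to 11 members lower with rHDL after loading, 0 to 1 higher with loading in rHDL-treated cells, and 0 to 1 higher and 0 to 1 lower for loading then rHDL against neither. Same-numbered libraries correlated at -0.077 to 0.074 for LPS and untreated cells. In the second table they correlated at -0.03 to 0.436, over 0.1 in 13 of 18 pairs, and 9 of 12 libraries were closest to their own number, a hint of shared deviations that does not hold for every pair and that the labels do not explain. With the replicate block, rHDL after loading gave 16 members lower (11 without it), and over all genes 277 higher and 209 lower (38 and 53), of which members were 7.66% (20.8%), while loading gave 717 and 934 (358 and 410) and both treatments against neither 330 and 463 (127 and 171). For rHDL after loading all genes gave 19 and 23 in a fit of only the groups compared, 93 and 77 under DESeq2, and 90 and 86 with no low-count filter. Fits of only the groups compared also gave 691 genes lower with loading and 59 and 88 for both treatments against neither. Library totals gave 1532 and 6640 genes for LPS (3380 and 3605 with TMM). Scaling by totals shifted the median of all genes to 0.14 for rHDL alone, -0.20 for the difference and -0.10 for loading in rHDL-treated cells (1304 genes higher and 2009 lower). Few free exon bases limit Hspa5, Sel1l, Os9 and Syvn1, and low counts limit Pdia5 and Txndc5.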
